A study of Mus musculus with 6 samples.

Results

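The 10 genes described here are standard markers of the cells that wrap blood vessels, the smooth muscle cells of arteries and veins and the pericytes of capillaries. They were chosen by name, with earlier results of these data known. The contractile genes are Acta2, Tagln, Myh11, Cnn1, Myl9, Tpm2 and Smtn, and the pericyte-type genes are Rgs5, Pdgfrb and Notch3. All 10 had a row in the deposited table of 12824 genes, and all 10 were among the 12686 genes that passed a filter on low counts and were tested. RNA was taken from whole hearts of mice aged 2 months. The 3 knockout hearts (KO) had the genotype SRSF4flox/flox;NKx2.5-Cre and the 3 control hearts SRSF4flox/flox, all on strain C57BL/6. Both groups thus carried the floxed allele of the splicing factor gene Srsf4, and Cre was present in the KO group only; mice with Cre and no floxed allele were not analysed here. Nkx2-5 is a transcription factor of the cardiac lineage. The labels do not say which cells of the heart lost Srsf4, or whether vessel wall cells were among them.

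Smooth muscle cells contract by sliding actin over myosin after calcium activates myosin light chain kinase, and their contractile genes are largely switched on by serum response factor with its partner myocardin, which bind a DNA element called the CArG box. Pericytes sit on capillaries, are recruited there by platelet-derived growth factor (PDGF) from endothelium acting on the receptor PDGFRB, and depend on signalling through the receptor NOTCH3 for their contact with endothelium. In the adult heart smooth muscle actin also appears in activated fibroblasts, and in the developing heart in immature muscle cells.

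The libraries summed to between 66927244 and 73344126 estimated counts in KO hearts and between 59810975 and 74941323 in control hearts. Levels below are CPM, counts scaled by library size. Srsf4 had 10.8, 10.1 and 8.39 CPM in KO hearts 1 to 3, against 22.1, 23.5 and 23.7 CPM in control hearts 1 to 3, so the libraries followed their labels. Of all 12686 genes tested, 765 (6.03%) passed edgeR's test at an adjusted p of 0.05, of which 54.5% were higher in KO hearts, or 23.6% of 1163 genes where total counts alone set the scale. Nkx2-5 itself was also lower in KO hearts, at 19.7 ± 1.13 CPM, against 38.1 ± 1.745 CPM in control hearts (SD, n = 3 each). Its log2 fold change was -0.95 (edgeR adjusted p = 0.000652), and it passed in all 15 other fits. Since Cre was present in KO hearts only, Cre and the loss of Srsf4 cannot be told apart as sources of the lower Nkx2-5 level. The part of the lower Nkx2-5 level in the values of the 10 markers was not tested. Library codes in the labels begin one way for all KO libraries and another way for all controls, so genotype and any batch behind these codes cannot be told apart.

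Control 3 stood apart in the contractile markers, and KO 1 in markers of other cell types. Control 3 had the highest level of the controls in all 7 contractile genes, with a median log2 ratio of 0.84 to the mean of the other controls; over all tested genes control 3 was highest in 38.9% and this median was 0.0. KO 1 was the lowest KO heart in 10 of 10 fibroblast markers, with a median log2 ratio of -1.31 to the mean of the other KO hearts, and in 8 of 10 endothelial markers (-0.51), against 43.8% of all tested genes. In the 10 markers themselves KO 1 was the lowest KO heart in 6, and in 3 of the 7 contractile genes. Results are therefore also given without these hearts.

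Of the 10 markers, 1 fell in KO hearts (Acta2), none rose, and 9 did not pass the test. Over all genes tested 2.74% passed as lower and 3.29% as higher, so 1 gene of 10 is near the background. The KO hearts lay wholly below the control hearts in 4 of the 10 (Acta2, Myl9, Smtn and Rgs5) and wholly above them in none. Over all genes tested the groups did not overlap in 27.2%, with KO below control in 13.5% and above in 13.7%. The median log2 fold change of KO over control was -0.38 over the 10 markers and -0.0032 over all genes. Without control 3 it was -0.065 over the 10 markers and 0.0027 over all genes. Leaving out any other single heart gave medians of -0.51 to -0.32 over the 10 markers. Control 3 was singled out on these same genes, so the fit without it is no independent test of their median.

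Acta2, which encodes smooth muscle alpha-actin, the thin filament protein of the vessel wall, was the one marker of the 10 that passed the test, 2.02-fold lower in KO hearts. It had 56.0, 50.6 and 54.8 CPM in KO hearts 1 to 3, against 117, 87.1 and 123 CPM in control hearts 1 to 3. The lowest control lay well above the highest KO heart. The means were 53.8 ± 2.83 CPM in KO hearts, against 108.9 ± 19.1 CPM in control hearts (SD, n = 3 each). The log2 fold change was -1.02 (edgeR adjusted p = 0.00547; standard error, SE, 0.13; 95% interval -1.33 to -0.70). Without control 3 the log2 fold change was -0.92 and without KO 1 it was -1.05, and both fits kept the call (edgeR adjusted p = 0.0279 and 0.00183). The gene (ENSMUSG00000035783) lies on chromosome 19 at 34241090 to 34255336 on the minus strand of GRCm38. Its longest transcript had no alignment of at least 60 bases with another gene's transcript that averaged 90% identity or more. Closer stretches inside a longer alignment of lower mean identity were not looked for. Whether reads were shared with related actin genes was not tested. Its close relatives, the cardiac actin gene Actc1 and the skeletal actin gene Acta1, had other patterns. Actc1 had 7869, 7098 and 6939 CPM in KO hearts, against 7606, 7765 and 8236 CPM in control hearts (log2 fold change -0.11, edgeR adjusted p = 0.538). Acta1 had 170, 715 and 142 CPM in KO hearts, against 171, 184 and 227 CPM in control hearts (edgeR adjusted p = 0.472), with KO 2 far above the rest.

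Myl9, the regulatory light chain of smooth muscle myosin that myosin light chain kinase phosphorylates, came next. It had 11.9, 13.7 and 12.5 CPM in KO hearts 1 to 3, against 16.3, 17.4 and 31.6 CPM in control hearts 1 to 3. The groups did not overlap, but the controls spread widely because control 3 lay 1.87-fold above the mean of the other controls. Its log2 fold change was -0.78 (SE 0.25, 95% interval -1.36 to -0.20) and it did not pass (edgeR adjusted p = 0.12; unadjusted p = 0.0146). Without control 3 the log2 fold change was -0.41 (edgeR adjusted p = 0.127). DESeq2 called it (adjusted p = 0.0184). In the authors' deposited table both Acta2 (log2 fold change -1.02, adjusted p = 0.000598) and Myl9 (-0.78, adjusted p = 0.00911) were below 0.05, and none of the other 8 markers was.

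**Figure D1:**
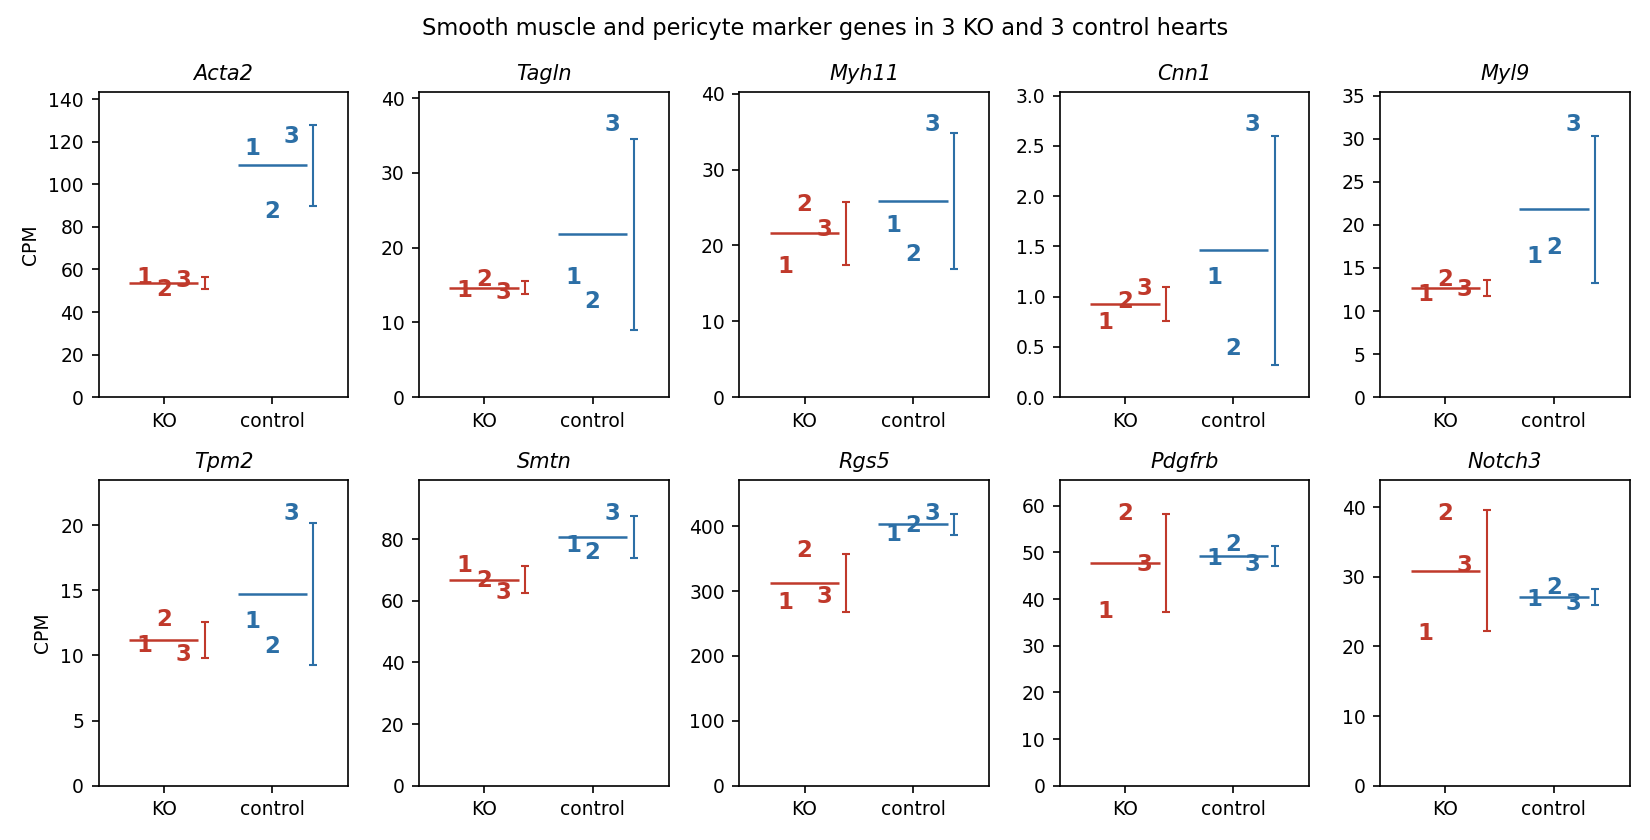
Level in CPM (vertical axes, starting at 0) of the 10 markers; each digit is 1 heart, numbered as in the labels, KO left and control right, with the group mean as a line and the SD as a bar. Acta2, Myl9, Smtn and Rgs5 had every KO heart below every control heart, and control 3 was the highest control for all 7 contractile genes.

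Because CArG boxes are the textbook control element of this gene group, the promoters of Acta2 and Myl9, the markers with the largest log2 differences, are shown. Each line gives the 250 bases before the RefSeq start of the gene, 5′ to 3′ on the coding strand, from GRCm38.p6; capitals mark each stretch of 10 bases that reads CC, then 6 bases of A or T, then GG, with at most 1 base off this pattern (the pattern is the same on both strands).
Acta2, chr19:34255374-34255623, minus strand: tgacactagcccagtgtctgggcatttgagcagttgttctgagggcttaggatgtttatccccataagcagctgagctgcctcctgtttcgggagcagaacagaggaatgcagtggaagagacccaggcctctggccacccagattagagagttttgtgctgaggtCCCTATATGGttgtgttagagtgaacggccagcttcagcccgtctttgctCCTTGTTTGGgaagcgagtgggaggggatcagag
Myl9, chr2:156775214-156775463, plus strand: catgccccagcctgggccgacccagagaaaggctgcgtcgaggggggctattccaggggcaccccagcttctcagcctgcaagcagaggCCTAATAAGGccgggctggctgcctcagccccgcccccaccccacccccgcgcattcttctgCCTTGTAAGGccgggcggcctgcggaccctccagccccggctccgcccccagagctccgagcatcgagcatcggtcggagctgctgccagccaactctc
The Acta2 window held 2 such stretches, starting 84 and 34 bases before the RefSeq start, each with 1 base off the pattern. The Myl9 window held 2, at 161 bases with an exact match and at 99 bases with 1 base off. Of the 7 markers with a promoter window these were the only ones with a stretch of this kind, and the windows of Cnn1, Tpm2, Smtn, Rgs5 and Notch3 held none. Tagln, Myh11 and Pdgfrb had no window available, so whether their promoters hold such a stretch was not examined. Of the 7 windows, 1 held an exact match (Myl9) and 2 a match with at most 1 base off (Acta2 and Myl9). Among all 32851 windows of the same length 1.47% held an exact match and 18.6% a match with at most 1 base off. Such a match is a description of letters, not evidence of binding. The part of these stretches in the differences between KO and control hearts was not tested.

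The remaining thin filament genes had lower mean levels in KO hearts and did not pass. Tagln, which encodes the actin-binding protein SM22-alpha, had 14.3, 15.7 and 13.9 CPM in KO hearts 1 to 3, against 16.0, 12.8 and 36.4 CPM in control hearts 1 to 3. Its controls lay on both sides of the KO hearts, and control 3 was 2.53-fold above the mean of the others. The log2 fold change of -0.57 (edgeR adjusted p = 0.414, SE 0.36) was 0.02 without control 3 (edgeR adjusted p = 0.97). Tagln shares 108 exon bases with Pcsk7 on the other strand, whose level was 13.8 ± 0.586 CPM (KO) and 13.98 ± 0.927 CPM (control), and 1241 exon bases with the antisense gene Gm48529, which was not analysed here; whether the counting used strand is not stated.

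Cnn1, the calponin that inhibits myosin's ATPase on the thin filament, was the marker with the lowest level per length and the widest spread among control hearts. It had 0.745, 0.947 and 1.08 CPM in KO hearts 1 to 3, against 1.19, 0.488 and 2.71 CPM in control hearts 1 to 3. The range of the controls, 5.56-fold from lowest to highest, enclosed all KO hearts. Its log2 fold change was -0.66 (SE 0.54, edgeR adjusted p = 0.548), and 0.13 without control 3 (edgeR adjusted p = 0.934). Its counts were 52 to 73 in KO libraries and 31 to 170 in control libraries.

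Tpm2, beta-tropomyosin, which lies along actin, had 10.8, 12.7 and 10.1 CPM in KO hearts 1 to 3, against 12.6, 10.7 and 20.9 CPM in control hearts 1 to 3. Apart from control 3 the groups lay in the same range. Its log2 fold change was -0.39 (edgeR adjusted p = 0.404), and -0.06 without control 3. Smtn, smoothelin, an actin-binding protein of contractile smooth muscle, had 71.4, 66.5 and 62.7 CPM in KO hearts 1 to 3, against 77.9, 75.7 and 88.5 CPM in control hearts 1 to 3. Every KO heart was below every control heart, with a log2 fold change of -0.27 (SE 0.09, 95% interval -0.48 to -0.06; edgeR adjusted p = 0.139). Without KO 1 Smtn passed (log2 fold change -0.32, edgeR adjusted p = 0.0298), as did 22.8% of all genes in that fit. Without control 3 the value was -0.20 (edgeR adjusted p = 0.402). Smtn also passed with total counts (edgeR adjusted p = 0.0356, 9.17% of all genes passing). With limma voom and quality weights it passed too (adjusted p = 0.0186, 27.9% of all genes passing). It did not pass in the other 12 of 15 fits. Smtn shares 714 exon bases with Gm11946 on the other strand, which was not analysed here.

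Myh11, the smooth muscle myosin heavy chain and the most specific of these markers for smooth muscle, had 17.2, 25.4 and 22.1 CPM in KO hearts 1 to 3, against 22.7, 18.9 and 35.9 CPM in control hearts 1 to 3. The groups overlapped, and the highest KO heart lay above controls 1 and 2. The log2 fold change was -0.26 (SE 0.25, 95% interval -0.84 to 0.32; edgeR adjusted p = 0.617), and 0.05 without control 3.

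Summed, the 7 contractile genes had 182, 186 and 177 CPM in KO hearts 1 to 3, against 264, 223 and 339 CPM in control hearts 1 to 3. Without Acta2 the sums were 126, 135 and 122 CPM in KO hearts, against 147, 136 and 216 CPM in control hearts. The KO hearts still lay below the controls, as they did in 13.5% of all single genes tested, but KO 2 and control 2 lay close together. Smtn alone gave a mean of 66.9 of the 127.9 CPM of this sum in KO hearts, and 80.7 of 166.3 CPM in control hearts. Of the genes in it, Tagln, Cnn1, Tpm2 and Myh11 overlapped between the groups. The sums varied little among the KO hearts (SD 6.40 CPM) and more among the controls (SD 43.5 CPM). In RNA from whole tissue, fewer cells of a type and less RNA per cell cannot be told apart.

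**Figure D2:**
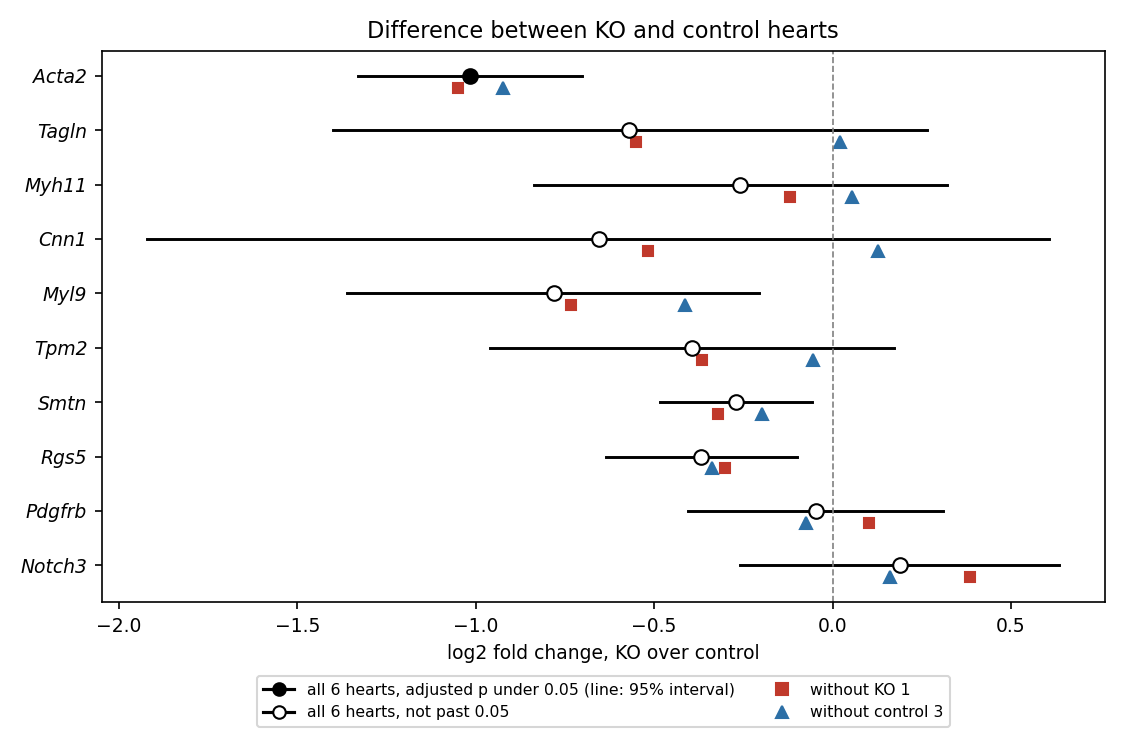
Log2 fold change of KO over control hearts for the 10 markers (horizontal axis), from all 6 hearts as circles with 95% intervals (filled where the adjusted p was under 0.05), and after leaving out KO 1 (squares) or control 3 (triangles). Acta2 stayed between -1.05 and -0.92, while the values of Tagln, Myh11, Cnn1 and Tpm2 lay within 0.13 of 0 without control 3.

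Of the pericyte-type genes, Rgs5, a regulator that speeds the switching-off of G proteins downstream of vasoactive receptors, was the most abundant of the 10 markers. It had 282, 363 and 291 CPM in KO hearts 1 to 3, against 388, 401 and 420 CPM in control hearts 1 to 3. Every KO heart was below every control, and the means were 312 ± 44.3 CPM in KO hearts, against 402.9 ± 16.2 CPM in control hearts (SD, n = 3 each). The log2 fold change was -0.37 (SE 0.11, 95% interval -0.63 to -0.10) and did not pass (edgeR adjusted p = 0.115; unadjusted p = 0.0134). It passed with total counts (adjusted p = 0.0406), with DESeq2 (0.0282), with limma voom and quality weights (0.0339) and without KO 2 (edgeR adjusted p = 0.038), and did not pass in the other 11 of 15 fits, which include those without KO 1 (edgeR adjusted p = 0.0678) and without control 3 (0.323). Rgs5 lies on chromosome 1 at 169655501 to 169695813, where 30 of the 83 other tested genes within 5 Mb (36.1%) passed the test, against 6.03% of all genes. The part of this neighbourhood in the value was not tested.

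Pdgfrb, the PDGF receptor of pericytes and other mesenchymal cells, had 37.3, 58.4 and 47.3 CPM in KO hearts 1 to 3, against 48.7, 51.7 and 47.5 CPM in control hearts 1 to 3. The controls differed by 1.09-fold at most and the KO hearts by 1.57-fold, with KO 1 lowest and KO 2 highest of all 6. For Pdgfrb the log2 fold change was -0.05 (95% interval -0.41 to 0.31; edgeR adjusted p = 0.902), and 0.10 without KO 1 (edgeR adjusted p = 0.466). Within 5 Mb of Pdgfrb 10 of 50 other tested genes (20%) passed.

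Notch3, the Notch receptor of vascular smooth muscle and pericytes, was the marker with a higher mean in KO hearts. It had 21.8, 39.1 and 31.7 CPM in KO hearts 1 to 3, against 26.8, 28.4 and 26.1 CPM in control hearts 1 to 3. KO 1 was below all controls, and KO 2 and KO 3 were above them. The log2 fold change was 0.19 (95% interval -0.26 to 0.64; edgeR adjusted p = 0.64). Without KO 1 it was 0.39 and passed (edgeR adjusted p = 0.024), as did 22.8% of all genes in that fit. Without KO 2 it was -0.02 (edgeR adjusted p = 0.968). Notch3 shares 488 exon bases with the antisense gene Gm17276, which had 0.446 ± 0.190 CPM in KO hearts, against 0.373 ± 0.144 CPM in control hearts.

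Pdgfrb, Notch3, Rgs5, Myh11 and Myl9 shared an order among the KO hearts, with KO 1 lowest and KO 2 highest. It was also that of the summed endothelial and fibroblast markers. The fibroblast markers summed to 845, 1845 and 1650 CPM in KO hearts 1 to 3, against 1439 to 1453 CPM in control hearts. The endothelial markers summed to 519.5, 799 and 704 CPM in KO hearts 1 to 3, against 684 to 735 CPM in control hearts. The cardiomyocyte markers summed to 65830 to 72520 CPM in KO hearts, against 68990 to 70610 CPM in control hearts. None of the 10 fibroblast, 10 endothelial and 10 cardiomyocyte markers passed edgeR's test or DESeq2; 1 of these 30 had an unadjusted edgeR p under 0.05, the endothelial gene Vwf (named after its value was seen; log2 fold change -0.55). Without KO 1, 4 fibroblast, 1 endothelial and 4 cardiomyocyte markers passed, against 22.8% of all genes in that fit. The part of these cell types in the values of the 10 markers was not tested. Acta2, Smtn, Tagln, Tpm2 and Cnn1 had other orders. KO 1 was 1.06-fold the mean of KO 2 and KO 3 for Acta2 and 1.11-fold for Smtn. It was 0.967-fold for Tagln, 0.943-fold for Tpm2 and 0.734-fold for Cnn1.

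**Figure D3:**
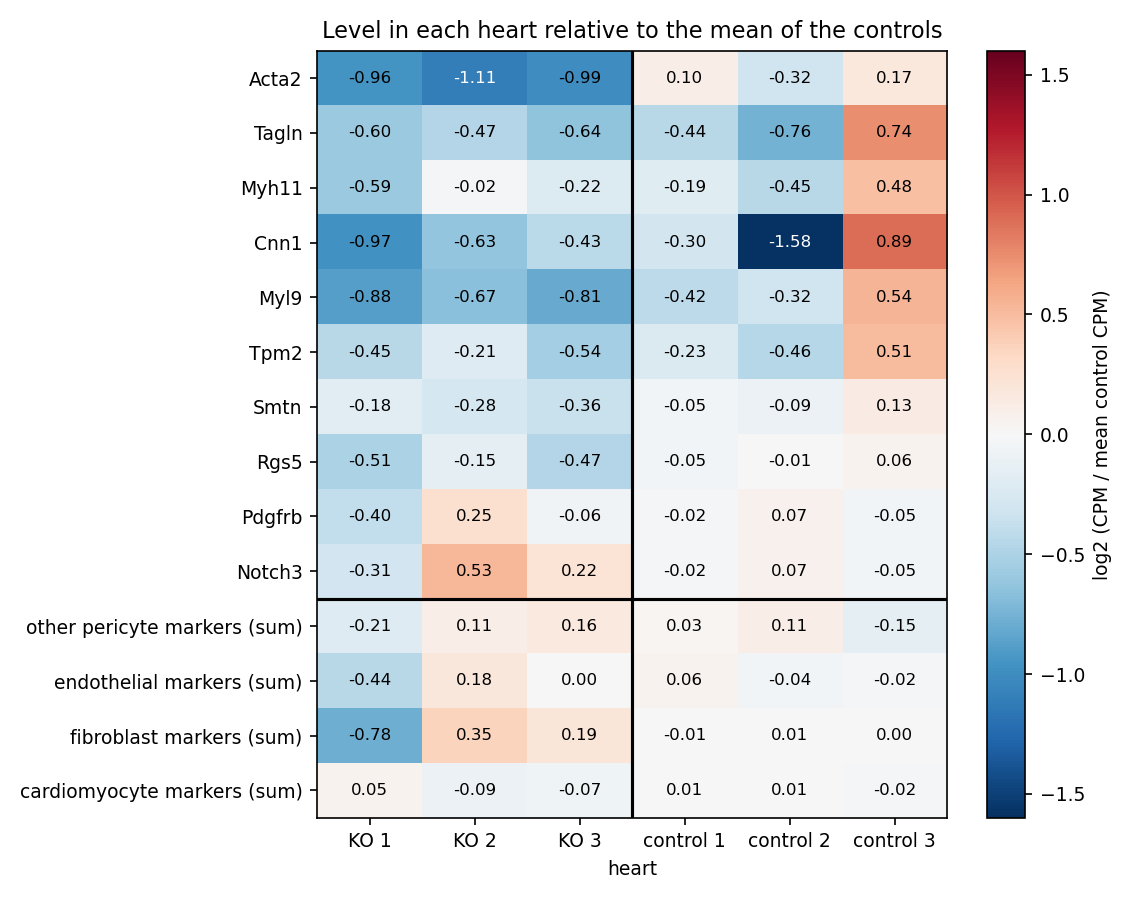
Log2 ratio of the CPM of each heart (columns, KO left) to the mean of the 3 controls, for the 10 markers and for sums over other cell type markers (rows). Acta2 was between -1.11 and -0.96 in all KO hearts, and control 3 stood out in Tagln, Cnn1, Myl9, Tpm2 and Myh11 (0.48 to 0.89). KO 1 was the lowest KO heart in Myh11, Cnn1, Myl9, Rgs5, Pdgfrb, Notch3 and the other pericyte, endothelial and fibroblast sums.

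Per kilobase of exon, the order of the means in KO hearts was Rgs5 (68.7 ± 9.74 CPM per kb), Acta2 (24.5 ± 1.29), Smtn (15.3 ± 0.996), Myl9 (10.9 ± 0.808), Pdgfrb (8.70 ± 1.93), Tagln (7.37 ± 0.462), Tpm2 (3.85 ± 0.470), Notch3 (3.82 ± 1.07), Myh11 (2.84 ± 0.543) and Cnn1 (0.338 ± 0.0623). In control hearts Rgs5 (88.6 ± 3.56 CPM per kb) and Acta2 (49.6 ± 8.69) also led, followed by Myl9 (18.8 ± 7.35), Smtn (18.4 ± 1.56), Tagln (10.95 ± 6.44), Pdgfrb (8.99 ± 0.396), Tpm2 (5.07 ± 1.87), Myh11 (3.40 ± 1.18), Notch3 (3.35 ± 0.144) and Cnn1 (0.534 ± 0.415). In KO hearts the neighbours Pdgfrb and Tagln, Tpm2 and Notch3, and Notch3 and Myh11 differed by less than the larger of their SDs. In control hearts this held for Myl9 and Smtn, Tagln and Pdgfrb, Tpm2 and Myh11, and Myh11 and Notch3.

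Of 25 other genes of the contractile apparatus, 1 fell and none rose in KO hearts, with a median log2 fold change of -0.03. Over all genes tested 2.74% fell and 3.29% rose, so this count is near the background. The one that fell was Pdlim3, an actin-associated LIM protein that heart muscle also makes, with 2.97, 4.17 and 3.67 CPM in KO hearts 1 to 3, against 8.86, 9.88 and 9.36 CPM in control hearts 1 to 3. Its log2 fold change was -1.38 (SE 0.14, edgeR adjusted p = 0.00165), and it passed in each fit without 1 heart. Lmod1, leiomodin, an actin nucleator of smooth muscle, had 1.15, 1.44 and 1.57 CPM in KO hearts, against 2.45, 1.92 and 4.29 CPM in control hearts, without overlap and with control 3 highest again; its log2 fold change of -1.05 did not pass (edgeR adjusted p = 0.0996) and was -0.66 without control 3. Pdlim7, a related LIM protein, had a log2 fold change of -0.37 (edgeR adjusted p = 0.108). Several genes of this list, such as Des and Tpm1, are made by heart muscle in far larger amounts, so the list covers more than vessel walls. Without KO 1, 5 of the 25 passed (2 higher and 3 lower), against 22.8% of all genes in that fit. DESeq2 called 4 of the 25 (1 higher and 3 lower), against 11.6% of all genes.

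None of 21 other pericyte markers passed edgeR's test, 6 of the 21 had an unadjusted p under 0.05, 3 higher and 3 lower (21.5% of all genes did), and DESeq2 called 1; the median log2 fold change was -0.06. Mcam, the adhesion molecule CD146, had 15.1, 23.0 and 18.9 CPM in KO hearts 1 to 3, against 27.6, 26.4 and 30.8 CPM in control hearts 1 to 3. The groups did not overlap, and the log2 fold change of -0.58 did not pass (edgeR adjusted p = 0.0758), though it did without KO 1 (-0.44, adjusted p = 0.0207) and without KO 2 (-0.74, adjusted p = 0.033). Vtn, vitronectin, had a log2 fold change of -0.31 (edgeR adjusted p = 0.139). The 3 with higher values and an unadjusted p under 0.05 were Abcc9 (log2 fold change 0.43, edgeR adjusted p = 0.19), Rgs4 (0.42, adjusted p = 0.194) and Ebf1 (0.59, adjusted p = 0.212), named after their values were seen. Without KO 1, 6 of the 21 passed, 5 higher and 1 lower, against 22.8% of all genes in that fit.

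Among 14 transcriptional regulators of smooth muscle genes, 1 fell and none rose, near the share over all genes (2.74% fell and 3.29% rose). Csrp2, a LIM protein that bridges serum response factor and GATA factors in smooth muscle, had 4.86, 6.21 and 5.69 CPM in KO hearts 1 to 3, against 10.9, 8.35 and 12.9 CPM in control hearts 1 to 3. Its log2 fold change was -0.94 (SE 0.17, edgeR adjusted p = 0.023), and the call was lost without control 1, control 3 or KO 3 (edgeR adjusted p = 0.097, 0.079 and 0.0778). Srf, serum response factor itself, had 69.5, 71.3 and 70.0 CPM in KO hearts 1 to 3, against 59.3, 58.5 and 56.9 CPM in control hearts 1 to 3. Every KO heart was above every control, with a log2 fold change of 0.27 (SE 0.07) that did not pass (edgeR adjusted p = 0.0554). Srf passed in 3 of 15 other fits, among them without KO 1 (edgeR adjusted p = 0.0174, 22.8% of all genes passing). Its log2 fold change was 0.13 with total counts (edgeR adjusted p = 0.237), which moved the median of all genes to -0.14. Fhl2, a LIM cofactor of serum response factor that heart muscle makes in large amounts, had a log2 fold change of -0.46 (edgeR adjusted p = 0.12). Myocd, myocardin, had 21.6, 23.6 and 26.5 CPM in KO hearts, against 21.6, 24.1 and 18.5 CPM in control hearts (log2 fold change 0.16, edgeR adjusted p = 0.517). Without KO 1, 4 of the 14 passed (2 higher and 2 lower), against 22.8% of all genes in that fit.

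Around NOTCH3, 1 of 16 other Notch ligands, receptors and targets fell and none rose, against 2.74% and 3.29% of all genes. Hey2, a transcriptional repressor induced by Notch and active in both the ventricle and the arterial wall, had 2.23, 2.05 and 2.06 CPM in KO hearts 1 to 3, against 3.70, 3.74 and 4.06 CPM in control hearts 1 to 3 (log2 fold change -0.86, SE 0.12, edgeR adjusted p = 0.0059). The target Hes1 (5.50, 8.10 and 5.95 CPM in KO hearts, against 9.35, 9.52 and 10.04 CPM in control hearts) had a log2 fold change of -0.56 without passing (edgeR adjusted p = 0.0784), and the ligand gene Dll1 of -0.45 (edgeR adjusted p = 0.1). Without KO 1, 5 of the 16 passed (3 higher and 2 lower), against 22.8% of all genes. Around PDGFRB, none of 8 PDGF ligands, receptors and adaptors passed; 1 had an unadjusted p under 0.05, Pdgfa (log2 fold change -0.31, edgeR adjusted p = 0.2), and DESeq2 called none. The adaptor phosphatase gene Ptpn11 followed by p, with a log2 fold change of 0.24. Of these 8, 2 passed without KO 1 (1 higher and 1 lower), against 22.8% of all genes. With limma voom and quality weights 1 passed, against 27.9% of all genes. Of 13 genes of TGF-beta signalling, which drives smooth muscle differentiation, 1 fell and none rose, against 2.74% and 3.29% of all genes. Ltbp1, which holds latent TGF-beta in the matrix, had 24.1, 27.0 and 28.8 CPM in KO hearts 1 to 3, against 38.7, 41.9 and 36.5 CPM in control hearts 1 to 3 (log2 fold change -0.55, SE 0.09, edgeR adjusted p = 0.0169). The call was lost without KO 2, control 1 or control 2 (edgeR adjusted p = 0.0521, 0.0839 and 0.0761). The signal transducer Smad2 had a log2 fold change of 0.31 (edgeR adjusted p = 0.07) and the co-receptor Tgfbr3 of -0.24 (edgeR adjusted p = 0.304). Of these 13, 2 passed without KO 1 (1 higher and 1 lower), against the same 22.8%.

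**Figure D4:**
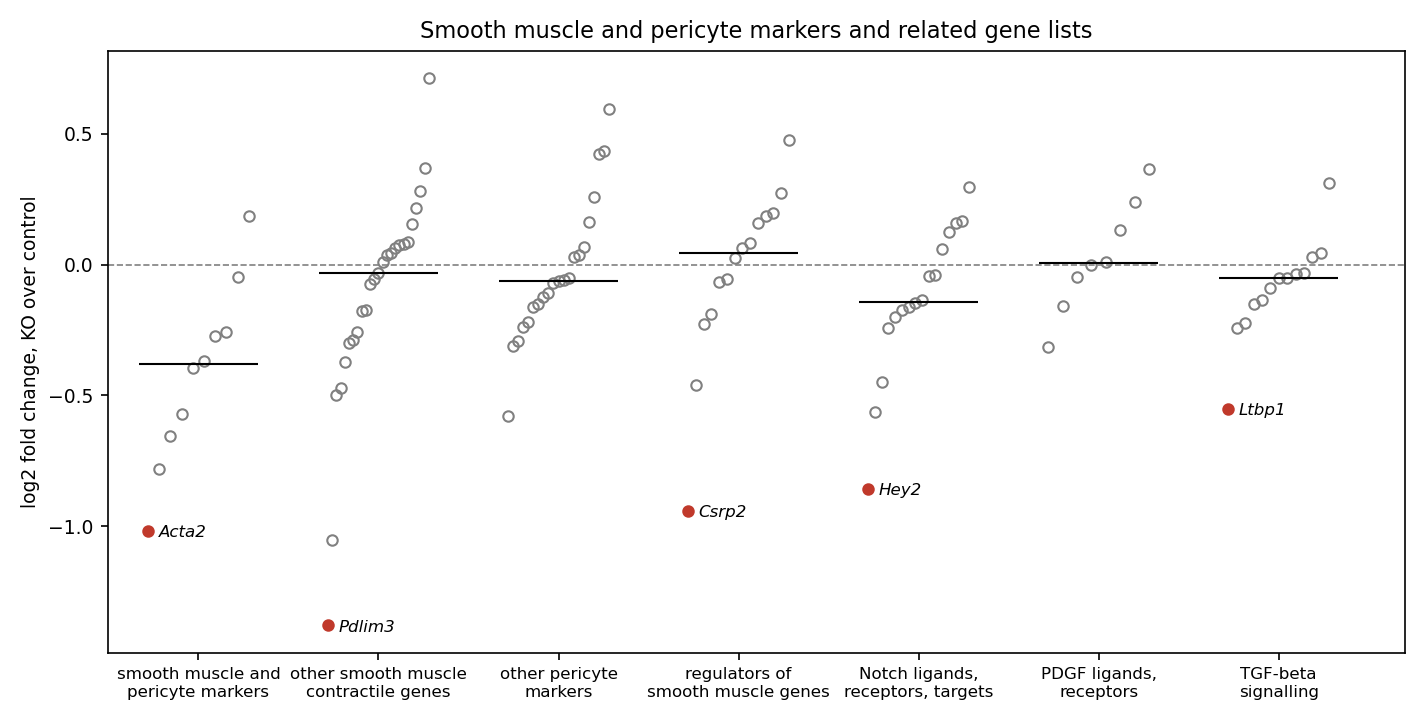
Log2 fold change of KO over control hearts (vertical axis) for the 10 markers and the 6 related lists; each circle is 1 gene, filled and named where the edgeR adjusted p was under 0.05, and the line is the median. The median of the 10 markers was -0.38, and those of the other lists lay between -0.14 and 0.04. Without control 3, which was singled out on these same markers, their median was -0.065 (other lists -0.11 to 0.054). Without any other single heart the median of the 10 markers was -0.51 to -0.32.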

How the data were processed

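Whole-heart RNA of 3 KO and 3 control mice was poly(A)-selected per the labels' protocols. GRCm38, RSEM 1.17, edgeR, Picard and cutadapt are named in the submitters' processing notes without their roles; aligner, annotation, filters and strand use are not given in these sources. Per the file headers the deposited values are raw values, taken as RSEM estimated counts rounded to whole numbers, and a normalized signal (counts times 1 factor per library). Of the authors' own comparison, the deposited columns are a log2 fold change (KO over control), a fold change score with a sign, and p-values before and after adjustment, per the file headers.

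Counts were tested with edgeR 4.0.16 in R 4.3.3: TMM factors, the default low-count filter, which removed 138 genes, a robust quasi-likelihood fit and F test of genotype over all 6 libraries without covariates, and Benjamini-Hochberg adjustment over 12686 genes. The steps were tested on simulated data. SE is the absolute log2 fold change over the square root of F, and 95% intervals use the test's degrees of freedom. CPM uses TMM-scaled library sizes; the limit set by a count of 0 (3 counts) is 0.0387 to 0.0478 CPM, for counting error only. Lengths are exon unions in GENCODE M21, and transcripts were compared with blastn 2.17.0. Alternatives were RLE factors, total counts, DESeq2 1.42.0, limma 3.58.1 (trend, and voom with quality weights), 2 other filters, a heart-number block, leaving out each library, an adjusted p of 0.01 and, added after seeing the data, the authors' scaling. The markers, the lists and the genes named (called genes of each list and the 2 uncalled with the smallest p) were chosen with earlier results of these data known; Actc1, Acta1, Myocd and the genes overlapping a marker were added for context. The labels say that hearts were separate; same-numbered hearts did not deviate together in every pair.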

Additional observations from a re-analysis of the deposited data

How the results depend on the processing

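Acta2 passed in all 15 other fits (log2 fold change -1.15 to -0.92, adjusted p 4.11e-10 to 0.0313). The number of the 10 markers called was 1, against 6.03% of all genes. With total counts, which moved the median of all genes to -0.14, the number was 3, against 9.17% of all genes. The number was 3 with DESeq2 (11.6% of all genes) and 3 with limma voom (27.9% of all genes). Without 1 heart the number was 1 to 3, against 2.27% to 22.8% of all genes. The 765 calls over all genes became 1163 with total counts, 1468 with DESeq2, 3538 with voom, 505 with the replicate block, 291 at an adjusted p under 0.01 and 288 to 2896 without 1 heart. Signs changed without 1 heart in 5 markers, the cause not tested: log2 fold changes ran from -0.836 to 0.0213 for Tagln, -0.438 to 0.0543 for Myh11 and -1.06 to 0.128 for Cnn1 (each highest without control 3), from -0.22 to 0.102 for Pdgfrb (highest without KO 1) and from -0.0189 (without KO 2) to 0.385 (without KO 1) for Notch3. With voom Pdgfrb was at 0.0537. Heart numbers are not said to pair animals: deviations of same-numbered hearts correlated at -0.06, 0.15 and -0.26, of the KO hearts KO 2 alone correlated best with its own number, and with the block 1 marker passed. Cnn1 had the fewest counts of the 10 markers.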
